A study of Mus musculus with 10 samples.

Results

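Malat1, Neat1, Rn7sk, Rpph1, Kcnq1ot1, Meg3 and Mir17hg are noncoding RNA genes whose transcripts act in the nucleus or host small RNAs. They were taken by symbol from the Ensembl identifiers of the count tables, and all 7 were found among the 41388 genes listed for each library. The data are RNA-seq read counts of whole ear skin from 10 C57Bl/6 mice, 1 library per mouse. The Experimental group holds 6 libraries and the Littermate group 4. All 10 mice, Littermates included, received MC903 (calipotriol, a vitamin D analogue that inflames the skin and causes itch) on the skin at 1 nM every day for 12 days, so no library comes from untreated skin.

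The sample labels give the Experimental genotype as NaV1.8+ Jak1F/F and the Littermate genotype as WT, whereas the series text gives the Experimental genotype as NaV1.8+ Il4raF/F. Which floxed gene was deleted is not settled here. NaV1.8 is a sodium channel of sensory neurons for pain and itch, whose cell bodies lie outside the ear, so the cells that carry the deletion are represented in ear RNA by their endings only. Its gene Scn10a had 2 counts over the 10 libraries, while the epidermal keratin Krt14 ran from 13231 to 19450 CPM (counts per 1e+06 counts) in Experimental libraries and from 15578 to 19518 CPM in Littermates. Age, sex, litter and batch are not given in the labels. Y-linked genes summed to 282 to 337 CPM in Experimental libraries and 226 to 302 CPM in Littermates. Xist, the RNA of the inactive X chromosome of females, had 0.17 to 0.35 CPM in Experimental libraries and 0.16 to 0.37 CPM in Littermates. By these levels all 10 mice were male. Total counts ran from 11520348 to 41935183 in Experimental libraries and from 12865459 to 14324433 in Littermates.

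Malat1 is a long RNA kept in nuclear speckles, where splicing factors gather. Neat1, its neighbour on the same chromosome, is the scaffold of paraspeckles. Rn7sk (7SK) holds the elongation kinase P-TEFb in an inactive complex, and Rpph1 is the catalytic RNA of RNase P, which trims the 5′ end of tRNA precursors. Both are made by RNA polymerase III. Kcnq1ot1 is an imprinted RNA expressed from the paternal chromosome, and Meg3 one expressed from the maternal chromosome. Mir17hg is the host transcript from which the miRNAs of the miR-17-92 cluster, known for roles in cell division and lymphocyte growth, are cut. Malat1, the long form of Neat1, Rn7sk and Rpph1 carry no poly(A) tail, and the libraries were made from total RNA depleted of ribosomal RNA, which keeps such transcripts.

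The sequences below are those that mark how these RNAs work. The RNA of Rn7sk (mm10, chr9:78175524-78175633, minus strand) is shown from its first base, with GATC in capitals, since the GAUC repeats of its 5′ hairpin are where the P-TEFb inhibitor HEXIM binds. GATC is its own reverse complement. At least 3 copies in the first 110 bases were found in 222 of 51777 GENCODE M21 transcripts (0.429%).
Rn7sk: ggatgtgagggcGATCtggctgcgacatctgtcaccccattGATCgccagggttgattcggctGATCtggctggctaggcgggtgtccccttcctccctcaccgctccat

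At the 3′ end of Malat1 and of long Neat1, U-rich stretches fold with an A-rich stretch into a triple helix that protects the RNA. The 3 runs of at least 11 bases shared by the regions before the 3′ ends are in capitals, on the strand of the RNA, for Malat1 at chr19:5795982-5796091 and for Neat1 at chr19:5824708-5824817 (both mm10, minus strand). The annotated Malat1 transcript goes on for 292 bases after this stretch, while that of Neat1 ends with it.
Malat1: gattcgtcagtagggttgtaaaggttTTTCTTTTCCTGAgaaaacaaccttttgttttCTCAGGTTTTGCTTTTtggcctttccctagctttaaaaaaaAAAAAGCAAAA
Neat1: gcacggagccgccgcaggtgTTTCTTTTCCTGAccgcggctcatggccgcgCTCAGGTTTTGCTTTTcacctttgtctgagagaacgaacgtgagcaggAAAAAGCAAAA
Searched on the transcript strand only, the run TTTCTTTTCCTGA occurred in 17 of 55450 genes, CTCAGGTTTTGCTTTT in 2 and AAAAAGCAAAA in 304. All 3 runs occurred together in 2 genes, Malat1 and Neat1 (0.00361%). Within the last 110 bases of a transcript, the same runs occurred in 2, 1 and 30 of 51777 transcripts.

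The main miRNAs cut from Mir17hg are given with the seed, the bases 2 to 8 that pair with targets, in capitals (RefSeq, GRCm38.p6, chromosome 14, plus strand). They are shown because Mir17hg is the gene among the 7 with the largest difference between the groups.
mmu-miR-17-5p: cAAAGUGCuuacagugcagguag
mmu-miR-20a-5p: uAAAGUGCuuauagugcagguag
mmu-miR-18a-5p: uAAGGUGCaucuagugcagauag
mmu-miR-19a-3p: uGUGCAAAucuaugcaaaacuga
mmu-miR-19b-3p: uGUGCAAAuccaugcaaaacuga
mmu-miR-92a-3p: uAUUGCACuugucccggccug
The seed AAAGUGC is shared by miR-17-5p and miR-20a-5p, and GUGCAAA by miR-19a-3p and miR-19b-3p. The other 2 have seeds of their own.

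Mir17hg stood higher in Experimental skin in every library, at 1.34 times the Littermate level, but did not pass the test over all genes. The other 6 RNAs differed little. Malat1 leaned higher in Experimental skin, and Neat1, Rn7sk, Rpph1, Kcnq1ot1 and Meg3 overlapped widely between the groups. Together the 7 RNAs took 2.86 ± 0.23% of all counts in Experimental libraries (SD, n = 6), with a range from 2.52 to 3.06%, and 2.61 ± 0.24% in Littermates (SD, n = 4), from 2.45 to 2.97%. In whole tissue, fewer cells of a type and less RNA per cell cannot be told apart.

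No gene among the 7 passed edgeR's quasi-likelihood test at an adjusted p of 0.05, where 3 of 16830 tested genes did (0.0178%). By DESeq2, 1 of the 7 passed, Mir17hg, among 232 genes called (1.5% of those with an adjusted p). At an unadjusted p under 0.05 in edgeR, Mir17hg alone of the 7 was found, as 1 of 615 genes higher in Experimental skin (3.65%), within 1978 genes in either direction (11.8%). Mir17hg was also the only one of the 7 whose CPM values did not overlap, where the whole table has 199 genes with all Experimental libraries above all Littermates (1.18%) and 374 genes without overlap in either direction (2.22%). In the lower direction the whole table has 1363 genes at an unadjusted p under 0.05 (8.1%) and 175 with all Experimental libraries below all Littermates (1.04%). With 7 genes, 1 at this level is a small count, and the genes were chosen with earlier results known.

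**Figure D1:**
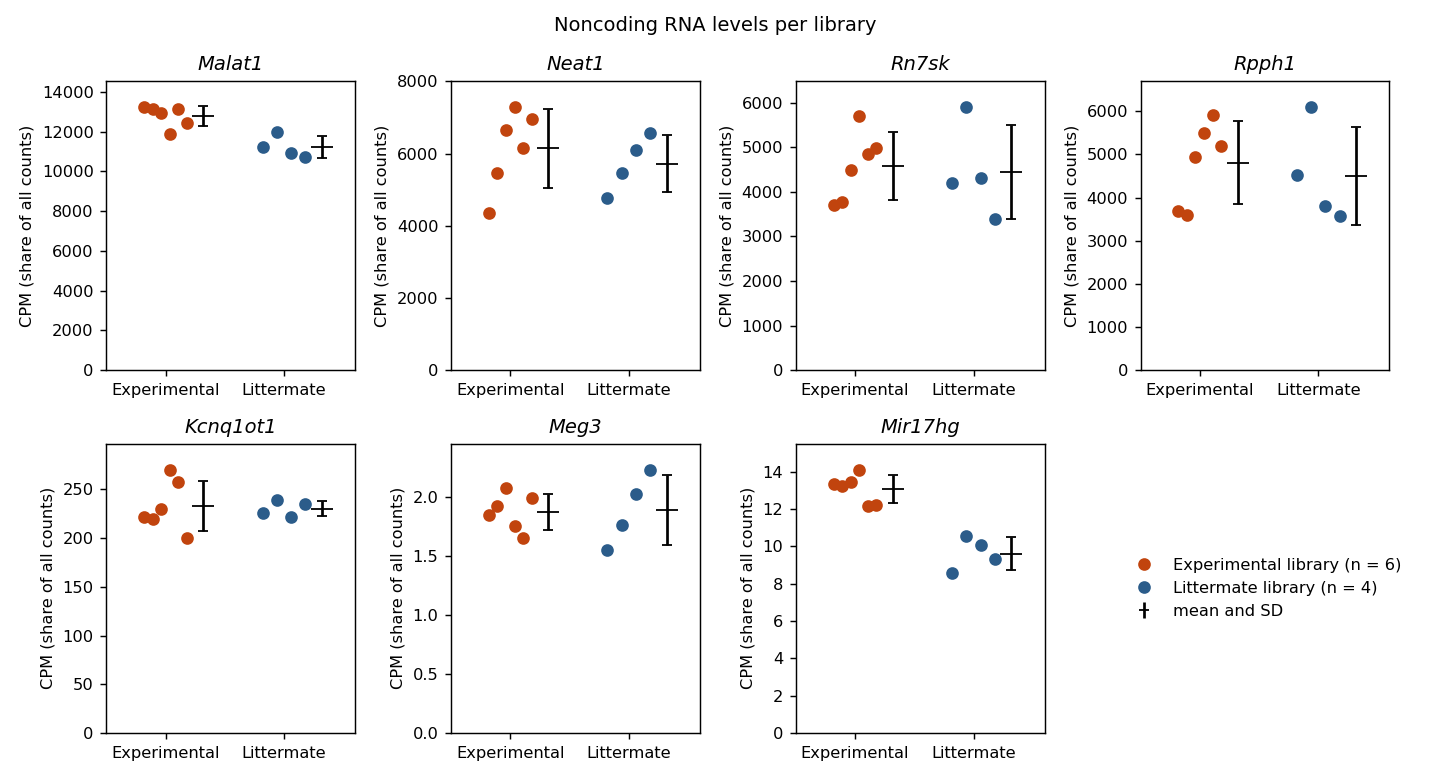
CPM of each RNA in each library, with Experimental libraries (n = 6) in orange left of Littermate libraries (n = 4) in blue, and the mean and SD in black; each panel has its own axis from 0. Mir17hg is the panel in which the groups do not overlap, with Experimental libraries from 12.2 to 14.1 CPM and Littermates from 8.55 to 10.6 CPM.

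Malat1 (ENSMUSG00000092341, mm10 chromosome 19, 5795690 to 5802672, minus strand, 1 exon of 6983 bases) was the second most abundant of all genes by mean CPM and the 16th by mean RPKM (CPM per kilobase), at 1742 RPKM. It had 13225, 13152, 12928, 11897, 13118 and 12429 CPM in Experimental libraries 1 to 6, against 11222, 12001, 10939 and 10739 CPM in Littermates 1 to 4. Experimental library 4 alone lay below the highest Littermate, library 2, and the other 5 lay above all Littermates. The means were 12791 ± 524 CPM in Experimental libraries (SD, n = 6) and 11225 ± 554 CPM in Littermates (SD, n = 4). The log2 fold change was 0.17 with an SE of 0.10 and a 95% interval from -0.04 to 0.38, which did not pass (edgeR, adjusted p = 0.529). After a correction for GC content it was 0.11 (edgeR, adjusted p = 0.732). Of its 50-base windows, 6.36% also occur in transcripts of other genes.

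Neat1 (ENSMUSG00000092274, chromosome 19, 5824708 to 5845478, minus strand, 1 exon of 20771 bases) was the seventh gene by mean CPM and stood at 288 RPKM. It had 4352, 5452, 6665, 7279, 6155 and 6958 CPM in Experimental libraries and 4769, 5466, 6086 and 6570 CPM in Littermates. Both the lowest and the highest value belong to Experimental libraries, and the Littermates lie between them. On the log2 scale the difference was 0.08 with an SE of 0.14 and a 95% interval from -0.22 to 0.39 (edgeR, adjusted p = 0.866), and it ran from 0.010 without Littermate 1 to 0.17 without Experimental 1. Neat1 counts per Malat1 count were 0.483 ± 0.102 in Experimental libraries (SD, n = 6) and 0.512 ± 0.087 in Littermates (SD, n = 4), with overlapping ranges of 0.329 to 0.612 and 0.425 to 0.612. Within the groups the log2 CPM of Malat1 and Neat1 went in opposite directions, with a Pearson r of -0.66 over the 10 libraries after the group means were removed and -0.17 before. Each r is a description of libraries that also share their depth scaling.

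Genes whose products build these nuclear bodies, and the partners of the other RNAs below, were looked at as lists, with counts by edgeR and, where a list had calls by DESeq2 or voom, by those tools too. Of 17 tested genes for paraspeckle proteins none passed in either direction (12 had a positive and 5 a negative log2 fold change), 2 higher and 3 lower had an unadjusted p under 0.05, and their median was 0.09 (0.06 to 0.12 with a library left out), beside -0.00 over all tested genes. Hnrnph3, an RNA-binding protein of paraspeckles, had 22.9 ± 2.70 CPM in Experimental libraries and 19.3 ± 2.09 CPM in Littermates, at 0.25 on the log2 scale (edgeR, adjusted p = 0.363). Smarca4, the ATPase of SWI/SNF chromatin remodelling complexes, had 167 ± 6.20 CPM in Experimental libraries and 202 ± 35.2 CPM in Littermates, at -0.28 (edgeR, adjusted p = 0.268). It stood at -0.18 without Littermate 4, at -0.087 with the Y-linked level as a covariate and at -0.38 without Littermate 2 (edgeR, adjusted p = 0.0162), a fit in which 342 genes passed (2%).

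Of 16 tested splicing factors of nuclear speckles, none passed, 3 higher and 1 lower had an unadjusted p under 0.05, 12 had a positive log2 fold change, and the median was 0.09 (0.07 to 0.13 with a library left out). Their summed level ran from 2563 to 2717 CPM in Experimental libraries, with no overlap with the 2448 to 2545 CPM of Littermates. The summed levels of all other lists overlapped between the groups. Among single tested genes, 1.18% had all Experimental libraries above all Littermates. Single genes vary more between libraries than a sum of 16, so that share is no background for the sum. The difference in the sum was not tested. The SR protein gene Srsf5 stood at 0.21 (edgeR, adjusted p = 0.329). Srrm1, a coactivator of splicing, stood at -0.20 (edgeR, adjusted p = 0.387) and at -0.13 without Littermate 4.

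Rn7sk (ENSMUSG00000065037, chromosome 9, 78175303 to 78175633, minus strand, 1 exon of 331 bases) and Rpph1 (ENSMUSG00000092837, chromosome 14, 50807449 to 50807767, minus strand, 1 exon of 319 bases) were the highest of all genes per length. Rpph1 ranked first, at a mean of 14678 RPKM, and Rn7sk second, at 13671 RPKM. Their order did not hold in every library, since Rpph1 counts per Rn7sk count ran from 0.954 to 1.22 in Experimental libraries and from 0.886 to 1.08 in Littermates.

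Rn7sk had 3701, 3772, 4496, 5691, 4842 and 4971 CPM in Experimental libraries and 4197, 5893, 4302 and 3386 CPM in Littermates. Littermate 2 was the highest and Littermate 4 the lowest of the 10, so all Experimental values lay inside the Littermate range. On the log2 scale the groups differed by 0.03, with an SE of 0.15 and a 95% interval from -0.30 to 0.35 (edgeR, adjusted p = 0.970). Of its 50-base windows, 68.1% also occur in transcripts of 7 predicted genes, which together had 2028 counts over all libraries against 842794 for Rn7sk.

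Rpph1 had 3684, 3598, 4947, 5497, 5915 and 5187 CPM in Experimental libraries and 4527, 6089, 3812 and 3567 CPM in Littermates. The same Littermates, 2 and 4, held the highest and the lowest value here too. The log2 fold change was 0.08 with an SE of 0.17 and a 95% interval from -0.29 to 0.45 (edgeR, adjusted p = 0.900). Rpph1 has the highest GC content of the 7 genes, at 67.1%, and a correction for GC content gave 0.30 (edgeR, adjusted p = 0.654). In the annotation used here 68.1% of its 50-base windows also occur in transcripts of Ccnb1ip1, which had 1 count over all libraries.

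Across the 10 libraries the log2 CPM of Rn7sk and Rpph1 moved together, with a Pearson r of 0.91 both with and without the group means. Both RNAs are short, come from the same polymerase and share the libraries' scaling. The part of each of these in the r was not tested. The RNA of RNase MRP, Rmrp, also made by RNA polymerase III, had 805 ± 111 CPM in Experimental libraries (SD, n = 6) and 704 ± 86.6 CPM in Littermates (SD, n = 4), at 0.19 on the log2 scale (edgeR, adjusted p = 0.532) and 0.39 after a correction for GC content.

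**Figure D2:**
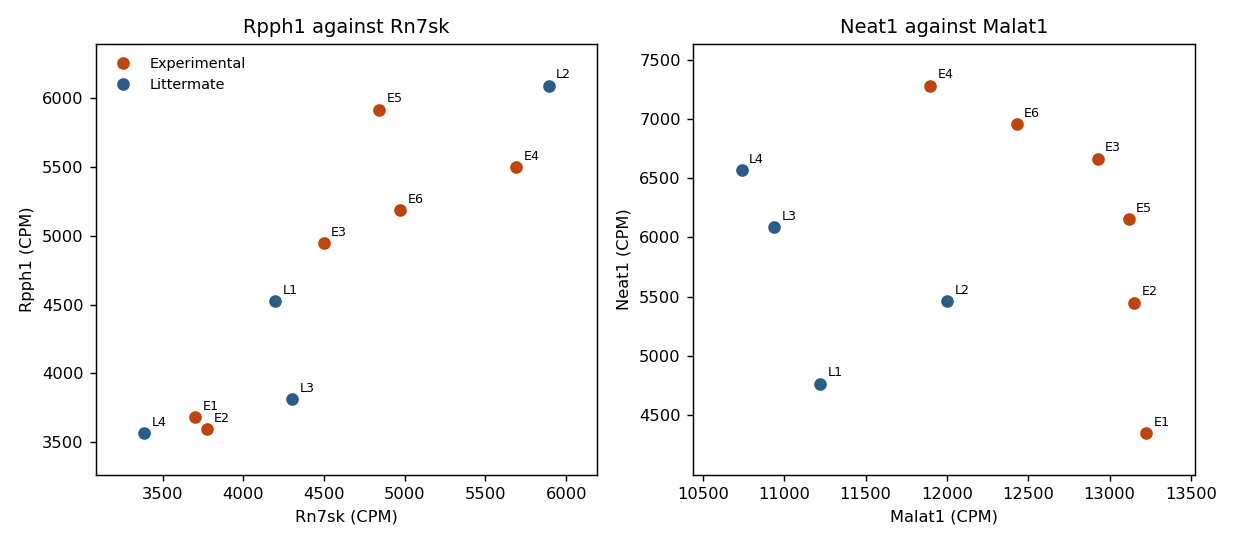
CPM of Rpph1 against Rn7sk (left) and of Neat1 against Malat1 (right), 1 point per library, with Experimental libraries (E1 to E6) in orange and Littermates (L1 to L4) in blue. Rn7sk and Rpph1 lie along 1 line in both groups (r = 0.91), while in the right panel the Experimental points lie to the right of the Littermates except that E4 is just left of L2.

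In the list of the 7SK complex and P-TEFb, none of 14 tested genes passed in edgeR, 1 higher and 2 lower had an unadjusted p under 0.05, 1 lower passed by DESeq2, and the median log2 fold change was 0.06 (0.0039 without Experimental 5 to 0.09). Mepce, the enzyme that caps the 5′ end of 7SK, had 33.1 ± 3.004 CPM in Experimental libraries and 41.2 ± 3.56 CPM in Littermates, at -0.31 (edgeR, adjusted p = 0.162). It stood at -0.17 after a correction for GC content, and passed without Littermate 2, at -0.36 (edgeR, adjusted p = 0.0485).

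Of 11 tested genes for proteins of RNase P and RNase MRP none passed, 0 had an unadjusted p under 0.05, and the median was 0.04 (0.02 without Littermate 4 to 0.13 without Littermate 2). The subunits Rpp30 and Pop1 stood at 0.28 and 0.17 on the log2 scale (edgeR, adjusted p = 0.523 and 0.655). With a library left out Rpp30 ran from 0.18 without Experimental 5 to 0.43 without Littermate 2, and Pop1 from 0.06 without Littermate 4 to 0.26 without Littermate 1. Of 21 genes of the RNA polymerase III machinery none passed either, 0 had an unadjusted p under 0.05, and the median was 0.03 (-0.02 without Littermate 4 to 0.05). The polymerase subunit Polr3f stood at 0.20 and Snapc4, of the complex that binds snRNA-type promoters such as that of Rn7sk, at -0.17 (edgeR, adjusted p = 0.462 and 0.455), and Polr3f ran from 0.12 without Littermate 4 to 0.30 without Littermate 2.

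Kcnq1ot1 (ENSMUSG00000101609, chromosome 7, 143212155 to 143296549, minus strand, 1 exon of 84395 bases) silences neighbouring genes on the paternal chromosome and lies antisense within Kcnq1, a potassium channel gene. It had 221, 219, 230, 270, 258 and 200 CPM in Experimental libraries and 225, 239, 222 and 235 CPM in Littermates. It ranked 578th by CPM, while its mean level per length was 2.75 RPKM. The Littermates lay inside the Experimental range, and the means were 233 ± 26.0 CPM in Experimental libraries (SD, n = 6) and 230 ± 7.82 CPM in Littermates (SD, n = 4). The log2 fold change was -0.00 with an SE of 0.08 and a 95% interval from -0.18 to 0.17 (edgeR, adjusted p = 0.999), the narrowest interval of the 7. The library kit described marks no strand, and 121 bases overlap Kcnq1, whose 669 counts over all libraries compare with 43700 for Kcnq1ot1. Kcnq1ot1 counts per Kcnq1 count averaged 71.5 ± 18.6 in Experimental libraries and 66.3 ± 14.9 in Littermates, with overlapping ranges.

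The protein-coding genes of the Kcnq1 imprinted domain did not pass either (0 of 12 in edgeR, 0 at an unadjusted p under 0.05, median -0.07, with 0.03 without Littermate 2 and 0.02 without Experimental 3). Osbpl5, a lipid transfer protein gene, stood at -0.13 (edgeR, adjusted p = 0.530) and at -0.06 without Littermate 4. Th, the tyrosine hydroxylase gene, which had 1.21 ± 0.53 CPM in Experimental libraries and 0.81 ± 0.60 CPM in Littermates, stood at 0.69 (edgeR, adjusted p = 0.582), at 0.41 without Littermate 2 and at 1.14 without Littermate 1.

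Meg3 (ENSMUSG00000021268, chromosome 12, 109541001 to 109571726, plus strand, 8 exons in 18089 bases) was the lowest of the 7, at a mean of 0.104 RPKM. It had 33, 71, 87, 21, 19 and 34 counts in Experimental libraries and 20, 24, 29 and 29 counts in Littermates. As CPM these were 1.87 ± 0.16 in Experimental libraries (SD, n = 6) and 1.89 ± 0.30 in Littermates (SD, n = 4), and all Experimental values lay inside the Littermate range of 1.55 to 2.23. The log2 fold change was -0.02 with an SE of 0.17 and a 95% interval from -0.38 to 0.35 (edgeR, adjusted p = 0.990). At this depth the 95% Wilson interval of a single library was 21.1 to 46.1% of the value to either side, for counting error only.

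Of the genes of the same Dlk1-Dio3 domain, Rian was listed at 0 in all 10 libraries. Mirg, a noncoding RNA further along the domain, had 5.84 ± 0.49 CPM in Experimental libraries and 5.89 ± 1.61 CPM in Littermates, at -0.01 (edgeR, adjusted p = 0.994). Begain, at the edge of the domain, had 1.84 ± 0.45 CPM in Experimental libraries and 2.69 ± 0.67 CPM in Littermates, at -0.59 (edgeR, adjusted p = 0.306). These were the 2 genes of that list that could be tested, and none passed, with Begain alone at an unadjusted p under 0.05. Among 14 tested genes of the imprinted gene network none passed, 2 lower had an unadjusted p under 0.05, 11 had a negative log2 fold change and the median was -0.10 (-0.16 without Experimental 4 to -0.06 without Littermate 1). Peg3, a zinc finger gene expressed from the paternal copy, had 88.9 ± 5.78 CPM in Experimental libraries and 107 ± 7.59 CPM in Littermates, at -0.27 (edgeR, adjusted p = 0.154). H19, itself a host of a miRNA, ranged from 44.5 to 85.3 CPM in Experimental libraries and from 44.4 to 173 CPM in Littermates, at -0.85 (edgeR, adjusted p = 0.422). It stood at -0.52 without Littermate 3.

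Mir17hg (ENSMUSG00000089726, chromosome 14, 115042879 to 115046727, plus strand, 2 exons of 3536 bases in all) had 238, 489, 564, 169, 140 and 209 counts in Experimental libraries and 110, 144, 144 and 121 counts in Littermates. As a share of all counts these were 13.3, 13.2, 13.4, 14.1, 12.2 and 12.2 CPM in Experimental libraries, against 8.55, 10.6, 10.1 and 9.30 CPM in Littermates. Every Experimental library lay above every Littermate, and the lowest Experimental and the highest Littermate value were 12.2 and 10.6 CPM. The means were 13.1 ± 0.76 CPM in Experimental libraries (SD, n = 6) and 9.62 ± 0.88 CPM in Littermates (SD, n = 4). Per length its mean was 3.31 RPKM, so that it is a low transcript beside Malat1 and Rpph1.

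The log2 fold change of Mir17hg was 0.43 with an SE of 0.09, a 1.34-fold higher level with a 95% interval from 1.17 to 1.54. Its unadjusted p of 0.00041 ranked 74th of 16830 genes, and its adjusted p of 0.0918 did not pass (edgeR). With total counts as the only scaling, which tests the share of counts itself, the estimate was 0.44 (edgeR, adjusted p = 0.112). Over 26 alternative fits it ran from 0.36 to 0.49. It passed in 3 of them: by DESeq2 (adjusted p = 0.00762), in edgeR without Littermate 2, at 0.47 (adjusted p = 0.0323), and in edgeR without Littermate 2 and Experimental 6, at 0.49 (adjusted p = 0.0245). Those 3 fits called 232, 342 and 565 genes (1.5%, 2% and 3.35%). The 95% Wilson interval of a single library was 8.26 to 18.8% of the value to either side, for counting error only.

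**Figure D3:**
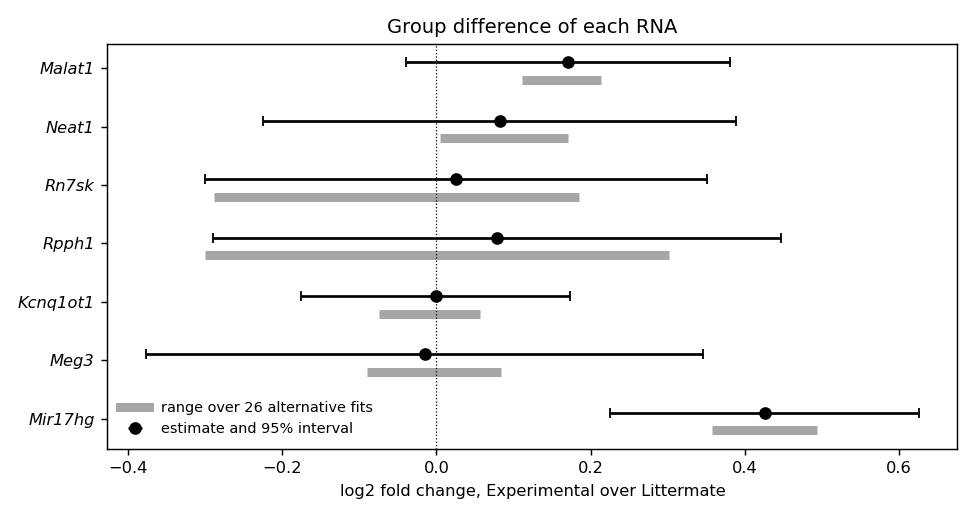
Log2 fold change of each RNA, Experimental over Littermate, with the 95% interval from the edgeR fit in black and the range over 26 alternative fits in grey. The interval of Mir17hg, from 0.23 to 0.63, lies above 0, and those of the other 6 RNAs include 0.

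All 6 hairpins of the cluster lie in the second exon of Mir17hg, from 792 to 1627 bases after its start. Mir17, Mir18, Mir19a, Mir20a, Mir19b-1 and Mir92-1 were each listed with 0 counts in all libraries. A library of this kind does not measure mature miRNAs of 21 to 23 bases, and the hairpin genes overlap an exon of the host, over 536 of its bases (15.2%). The sources used here do not say how the authors' counting treated reads over overlapping genes. The counts of Mir17hg are therefore those of the host transcript and were not shown to follow the mature miRNAs printed above.

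**Figure D4:**
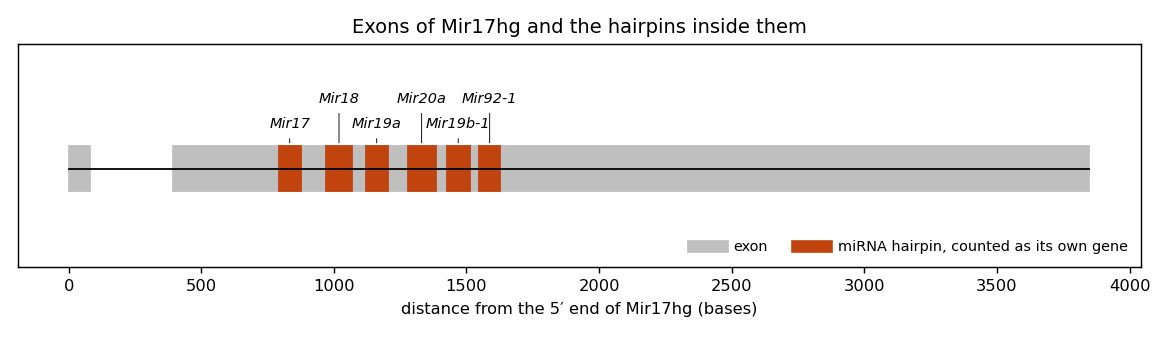
Map of Mir17hg with exons in grey and the 6 miRNA hairpins in orange, by distance in bases from the 5′ end of the host transcript. The hairpins sit between 792 and 1627 bases, in the first part of the second exon.

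Of the 6 listed regulators of the cluster, in which Myc and E2f factors are known to drive its transcription, none passed, Myc alone had an unadjusted p under 0.05, and 5 had a negative log2 fold change (median -0.03, from -0.07 to -0.01 with a library left out). Myc had 26.2 ± 3.88 CPM in Experimental libraries and 32.3 ± 5.64 CPM in Littermates, at -0.31 (edgeR, adjusted p = 0.339) and at -0.17 without Littermate 4. Mycn, at 0.73 ± 0.35 CPM in Experimental libraries and 1.11 ± 0.63 CPM in Littermates, stood at -0.54 (edgeR, adjusted p = 0.622) and at -0.06 without Littermate 2 and at -0.82 without Experimental 2.

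Of 14 tested genes known as targets of the cluster's miRNAs, none passed in edgeR and 2 passed by DESeq2, both lower. By voom with quality weights 1 passed, Zbtb7a, also lower, and by voom without them 0. By direction, 3 had a positive and 11 a negative log2 fold change, and the median was -0.06 (-0.08 to -0.04 with a library left out). Zbtb7a, a transcriptional repressor gene, had 78.1 ± 7.44 CPM in Experimental libraries and 112 ± 21.5 CPM in Littermates, at -0.52 (edgeR, adjusted p = 0.0833). Cdkn1a, which encodes the cell cycle inhibitor p21, had 67.0 ± 4.61 CPM in Experimental libraries and 85.2 ± 5.67 CPM in Littermates, at -0.35 (edgeR, adjusted p = 0.0833). In CPM scaled as in the edgeR fit, the groups did not overlap for either gene. The share of all tested genes without overlap in this direction, 1.04%, was counted on unscaled CPM. Zbtb7a ran from 66.8 to 87.6 CPM in Experimental libraries and from 89.8 to 142 CPM in Littermates. Cdkn1a ran from 59.2 to 71.5 CPM in Experimental libraries and from 78.1 to 92.0 CPM in Littermates. Both passed by DESeq2, Zbtb7a with an adjusted p of 0.00580 and Cdkn1a with 0.00437, and in edgeR without Littermate 2, at -0.62 and -0.39 (adjusted p = 0.00913 and 0.019), fits that called 1.5% and 2% of all genes. Over the 26 alternative fits Zbtb7a passed in 6 and Cdkn1a in 3. The list was written with earlier results of these data known, and its other 12 members lie closer to 0. Bcl2l11, which promotes cell death, stood at -0.29 (edgeR, adjusted p = 0.434), and was named after its values had been seen.

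Of 20 tested cell division genes none passed, 2 higher had an unadjusted p under 0.05, 16 had a positive log2 fold change and the median was 0.08 (0.00071 without Littermate 3 to 0.14 without Littermate 1). The replication helicase genes Mcm4 and Mcm2 stood at 0.21 and 0.22 (edgeR, adjusted p = 0.354 and 0.419). Among 19 tested host genes of other small RNAs none passed, 1 higher and 2 lower had an unadjusted p under 0.05, and the median was 0.06 (0.03 without Littermate 4 to 0.13 without Littermate 2). Mir99ahg stood at 0.24 and Mir100hg at -0.18 (edgeR, adjusted p = 0.304 and 0.406), both hosts of miRNA clusters, and Mir100hg was at -0.11 without Littermate 1. Of 5 tested further nuclear or polymerase III RNAs none passed, 0 had an unadjusted p under 0.05, the median was 0.10 (0.04 without Experimental 4 to 0.13), and the nuclear RNA Tug1 stood at 0.10 (edgeR, adjusted p = 0.543).

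**Figure D5:**
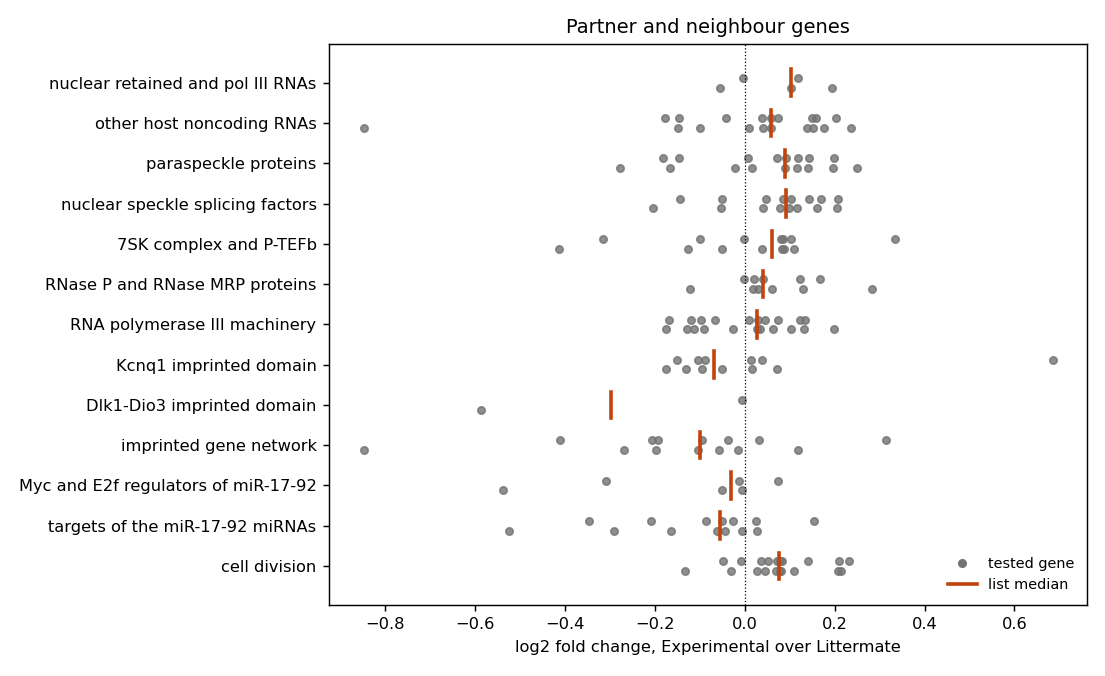
Log2 fold change, Experimental over Littermate, of each tested gene in the lists of partners, neighbours and related RNAs (grey points) with the list median (orange). Medians lie between -0.10 and 0.10 except that of the Dlk1-Dio3 domain, which rests on 2 genes.

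The genes whose pattern over the 10 libraries was most like each RNA were found by the Pearson r of log2 CPM among 14292 genes. For Mir17hg these were Lyz1 (r = 0.96), a lysozyme gene, and Pusl1 (r = 0.94). Lyz1 had a log2 fold change of 1.93 and Pusl1 of 0.13, so each r includes a difference between the groups. An r within the groups was not computed for them. For Malat1 they were Cpne3 (0.96) and Rcn1 (0.94), for Neat1 Raver2 and Ubp1 (0.90 each), for Rn7sk Eif3m and Rps27l (0.97 each), and for Rpph1 Tmem251 (0.95) and Lsm3 (0.92). For Kcnq1ot1 it was Urb1 (0.90), and for Meg3 they were Ube2j2 (0.95) and Adgra3 (0.92). Each is the top of a long list over few libraries and is a description only. Malat1 and Mir17hg had an r of 0.80 with each other over the 10 libraries and of 0.10 within the groups.

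Markers of the cell types of the ear were compared beside these RNAs, and none of their genes passed in edgeR, DESeq2 or voom. Summed levels overlapped between the groups for each cell type. Keratinocyte markers ran from 25794 to 32896 CPM in Experimental libraries and from 27372 to 32206 CPM in Littermates (median log2 fold change 0.00, from -0.02 to 0.09 with a library left out). Those of fibroblasts ran from 8434 to 10997 CPM in Experimental libraries and from 8209 to 13739 CPM in Littermates (median 0.01, -0.06 to 0.06, with 4 of 8 tested genes positive and 4 negative). Those of immune cells ran from 610 to 903 CPM in Experimental libraries and from 751 to 910 CPM in Littermates (median -0.21, -0.25 to -0.13). Those of muscle ran from 3378 to 4535 CPM in Experimental libraries and from 3039 to 6497 CPM in Littermates. The muscle median was -0.25, with -0.39 without Littermate 1 and 0.04 without Littermate 3. Adipocyte markers ran from 361 to 569 CPM in Experimental libraries and from 201 to 746 CPM in Littermates, with a median of -0.07, which was -0.31 without Littermate 2 and 0.18 without Littermate 4. Cartilage markers ran from 167 to 342 CPM in Experimental libraries and from 209 to 325 CPM in Littermates, with a median of -0.21, which was -0.37 without Littermate 3 and -0.13 without Experimental 6. Endothelial markers ran from 210.0 to 290.1 CPM in Experimental libraries and from 235 to 309 CPM in Littermates (median -0.07, -0.10 to 0.01). Those of Schwann cells and nerve ran from 73.3 to 133.2 CPM in Experimental libraries and from 105 to 133.4 CPM in Littermates (median -0.14, -0.21 to -0.06). Mitochondrially encoded genes had a median of -0.67 (7 tested, none passed in edgeR, 6 lower by DESeq2 and 3 lower by voom with quality weights). They summed to 4836 to 6068 CPM in Experimental libraries and 5533 to 7515 CPM in Littermates. The Y-linked genes summed to 282 to 337 CPM in Experimental libraries and 226 to 302 CPM in Littermates, with a median of 0.18, which was 0.12 without Littermate 4. The part of these differences in the levels of Mir17hg and Malat1 was not tested, except that Mir17hg stood at 0.43 with mitochondrially encoded genes left out (edgeR, adjusted p = 0.103) and at 0.40 with the Y-linked level as a covariate (edgeR, adjusted p = 0.790).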

How the data were processed

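Whole ear skin of 10 mice was sequenced as ribosomal RNA-depleted total RNA from random hexamers, in single reads of 50 bases, per the labels' protocols. STAR 2.0.4b, Subread, featureCounts 1.4.5 and mm10 were used, per the submitters' processing notes. The sources used here do not state the annotation release, the strand setting or the treatment of reads matching several genes. Each deposited file gives the authors' read count per gene, with no normalization, beside deposited CPM and RPKM values. The deposited CPM equals the count over the library total, and the deposited RPKM equals that CPM per kilobase of gene length.

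Only the counts were tested, with edgeR 4.0.16 in R 4.3.3 (TMM factors, filterByExpr by group, robust quasi-likelihood, two-sided, group as the only term, Benjamini-Hochberg adjustment over 16830 genes, threshold 0.05). The standard error is the log2 fold change over the square root of F. CPM values in the text are shares of all counts, with 1 exception, so 3 counts were worth 0.0715 to 0.260 CPM. The exception is single tested genes from the lists of partners, neighbours and related RNAs. Their CPM was scaled by the TMM factors, as in the edgeR fit. Summed levels of lists are unscaled shares. Wilson intervals (95%) cover counting error only. Symbols, biotypes and GC content came from GENCODE M21, with 97.3% of identifiers matched, and sequences from GENCODE M21 transcripts and RefSeq (GRCm38.p6). Replicates are separate mice. Alternatives were other size factors and filters, DESeq2 1.42.0, limma 3.58.1 voom, the replicate number as a block, the Y-linked level as a covariate, GC correction and libraries left out.

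From each list the text names genes that passed (up to 4) or else the 2 with the lowest p, and for each RNA the 2 most correlated genes. A gene that this rule takes but the text does not name is not reported here. Genes of the cell type lists, the mitochondrial and the Y-linked list are given as summed levels and medians. Ratios to Kcnq1 were chosen after the levels had been seen, and a planned ratio of Meg3 to Rian could not be formed. The genes and lists were chosen with earlier results of these data known. The list symbols Norad, Snhg1, Snhg4, Snhg7, Snhg8 and Flg were not matched.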

Additional observations from a re-analysis of the deposited data

How the results depend on the processing

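Over 26 alternatives the number of genes called, 3 in the reported fit, was 78 with no filter on low counts, 232 by DESeq2, 57 with voom quality weights, 67 with the replicate block, 11 with the replicate block and GC correction and 565 without Littermate 2 and Experimental 6, and 3 to 342 with each library left out. The 342 came without Littermate 2, 28 without Experimental 6 and 8 without Littermate 3. The cause was not tested. Malat1 (0.11 to 0.21) and Neat1 (0.0046 to 0.17) kept their direction in all 26 and passed in none, and Mir17hg kept its direction in all 26, with an unadjusted p under 0.05 in each. Mir17hg passed in 3, by DESeq2 (0.43), without Littermate 2 and Experimental 6 (0.49), and in the fit without Littermate 2, within 0.38 to 0.47 over libraries left out.

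The log2 fold changes near 0 changed sign without passing. Rn7sk was -0.026 with the replicate block, -0.29 with the Y-linked covariate and -0.073 to 0.18 with a library left out, and Rpph1 was -0.035, -0.30 and -0.0066 to 0.25 in the same order. Kcnq1ot1 was 0.018 with total counts, 0.0038 with RLE and 0.017 with upper quartile factors, 0.0089 with no filter, 0.0043 by DESeq2, 0.00023 with voom quality weights, 0.0040 with the replicate block, 0.0078 without mitochondrially encoded genes, 0.0050 with the 7 genes out of the library sizes, 0.057 without Littermate 2 and Experimental 6, 0.029 without the 2 deepest libraries and -0.035 to 0.041 with a library left out. Meg3 was 0.0026 with total counts, 0.0028 with upper quartile factors, 9.2e-06 with voom quality weights, 0.0030 with the replicate block, 0.0060 with the replicate block and GC correction, 0.075 with the Y-linked covariate and -0.090 to 0.083 with a library left out. Mirg was 0.010 with total counts, 0.011 with upper quartile factors, 0.0057 with no filter, 0.00037 by DESeq2, 0.037 with voom, 0.17 with voom quality weights, 0.039 with the replicate block, 0.018 with GC correction, 0.060 with both, 0.0024 without mitochondrially encoded genes, 0.21 without Littermate 2 and Experimental 6 and -0.15 to 0.18 with a library left out. Polr3f was -0.011 with the Y-linked covariate, Osbpl5 0.00065 with the replicate block and GC correction and Mycn 0.0048 without Littermate 2 and Experimental 6.

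The labels do not say that replicate numbers pair the mice. Deviations of same-numbered libraries correlated at 0.03, -0.02, 0.09 and -0.02, so the block may split libraries that share only a number. Only Littermate 3 correlated best with its own number. Mir17hg was 0.47 with the replicate block (edgeR, adjusted p = 0.130). Depth limits Meg3 most, at 19 to 87 counts per library.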

Other observations

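All noncoding genes took 4.51 ± 0.31% of counts in Experimental libraries (SD, n = 6) and 4.74 ± 0.33% in Littermates (SD, n = 4). Of all counts, the 7 RNAs took 2.52 to 3.06% in Experimental libraries and 2.45 to 2.97% in Littermates, which overlap. Of the counts of noncoding genes, they made up 61.0 to 66.2% in Experimental libraries and 48.9 to 59.4% in Littermates, with no overlap. This share also moves with the counts of the other noncoding genes. How often such shares of other gene sets fail to overlap was not counted. The lincRNA model Gm26917, second only to Malat1 among noncoding genes by CPM, ran from 6456 to 9825 CPM in Experimental libraries and from 8906 to 16784 CPM in Littermates, at -0.70 on the log2 scale (edgeR, adjusted p = 0.107), and its part in that share was not tested. It was chosen after its values had been seen.

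The signal recognition particle RNA gene Rn7s6 ran from 5.77 to 40.3 CPM in Experimental libraries, with a median of 17.6, and from 3.96 to 10.1 CPM in Littermates, with a median of 5.55. On the log2 scale the difference was 1.73 (edgeR, adjusted p = 0.300), and it too was chosen after its values had been seen. Of the Y RNAs, Rny3 had 4 to 13 counts in Experimental libraries and 6 to 29 in Littermates, which were 0.16 to 0.61 CPM in Experimental libraries and 0.42 to 2.25 CPM in Littermates, too few for the test. Rn7s1, Rn7s2 and Rny1 had 48, 65 and 30 counts over all 10 libraries.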
